A study of Homo sapiens with 15 samples.

Results

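The comparison set H1299 cells given both glucose and glutamine for 12 h against H1299 cells given neither, and it covered 6 of the 15 libraries of the series, 3 for each medium. H1299 is an established human cell line of lung cancer (the non-small cell type), taken from a lymph node and lacking functional p53. All cells first grew for a day in full RPMI 1640 medium with serum, then were washed and kept in fresh RPMI 1640 without serum, so the absence of serum is shared by every group. The medium with both nutrients held 5 mM glucose and 4 mM glutamine, the other media used here held 5 mM glucose alone or 4 mM glutamine alone, and the medium with neither held 0 mM of each. A medium with 5 mM glucose and 4 mM NH4Cl is not described, but its 3 libraries entered the fit and so its estimate of the spread behind each p-value. Poly(A) RNA was sequenced and reads were counted for 58395 genes, of which 16889 had enough counts to be tested. All cells came from the same line and the labels give triplicates without a day or a batch, so the p-values rest on the spread between these libraries, which may be technical.

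Glucose feeds glycolysis, the pentose phosphate pathway and the sugars added to proteins in the endoplasmic reticulum (ER), and glutamine feeds the citric acid cycle, nucleotide and amino acid synthesis. Cells that run short of either are known to use several transcription programmes. Misfolded protein in the cytosol frees HSF1, which raises chaperone genes through the heat shock element of their promoters. Shortage of amino acids or ER stress leads, through kinases that act on eIF2, to translation of ATF4, which raises genes of amino acid supply and, with prolonged stress, DDIT3 and PPP1R15A. Stress kinases raise immediate early genes such as FOS, JUN and EGR1. Low sterol lets SREBP proteins reach the nucleus and raise genes of cholesterol and fatty acid synthesis.

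Promoters of 6 genes show sequence elements known from the heat shock, ATF4 and ER stress responses. Each is the RefSeq sequence of GRCh38.p14 from 250 bases before to 50 bases after the annotated start of the gene, written 5′ to 3′ on the strand of the gene, with the matched element in capitals. The windows are HSPA6 at chr1:161524290-161524589 on the plus strand, HSPA8 at chr11:123062087-123062386 on the minus strand, DNAJA1 at chr9:33025023-33025322 on the plus strand, CHAC1 at chr15:40953221-40953520 on the plus strand, SLC3A2 at chr11:62881449-62881748 on the plus strand and HSPA5 at chr9:125241294-125241593 on the minus strand. HSPA6, HSPA8 and DNAJA1 carry the heat shock element, searched as GAA, any 2 bases, TTC, any 2 bases and GAA. CHAC1 and SLC3A2 carry the ATF4 element, searched as TGATGNAA, and HSPA5 the ER stress element, searched as CCAAT, any 9 bases and CCACG. Both strands were searched.
HSPA6: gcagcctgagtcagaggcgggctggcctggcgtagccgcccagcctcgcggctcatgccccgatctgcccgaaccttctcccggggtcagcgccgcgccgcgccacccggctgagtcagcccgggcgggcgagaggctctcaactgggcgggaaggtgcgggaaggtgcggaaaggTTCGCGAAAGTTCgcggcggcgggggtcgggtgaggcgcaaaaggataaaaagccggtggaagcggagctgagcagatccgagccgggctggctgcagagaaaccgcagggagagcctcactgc
HSPA8: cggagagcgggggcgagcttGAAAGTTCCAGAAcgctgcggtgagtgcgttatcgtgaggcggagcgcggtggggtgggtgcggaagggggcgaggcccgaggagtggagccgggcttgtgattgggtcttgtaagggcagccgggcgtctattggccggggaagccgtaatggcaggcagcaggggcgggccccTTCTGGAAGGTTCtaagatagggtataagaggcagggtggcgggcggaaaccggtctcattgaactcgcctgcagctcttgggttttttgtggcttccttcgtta
DNAJA1: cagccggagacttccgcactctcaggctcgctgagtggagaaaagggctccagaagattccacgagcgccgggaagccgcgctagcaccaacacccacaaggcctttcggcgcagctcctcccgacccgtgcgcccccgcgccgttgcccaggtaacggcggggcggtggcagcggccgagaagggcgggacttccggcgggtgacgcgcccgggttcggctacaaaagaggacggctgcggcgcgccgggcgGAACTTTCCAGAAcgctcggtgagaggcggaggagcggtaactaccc
CHAC1: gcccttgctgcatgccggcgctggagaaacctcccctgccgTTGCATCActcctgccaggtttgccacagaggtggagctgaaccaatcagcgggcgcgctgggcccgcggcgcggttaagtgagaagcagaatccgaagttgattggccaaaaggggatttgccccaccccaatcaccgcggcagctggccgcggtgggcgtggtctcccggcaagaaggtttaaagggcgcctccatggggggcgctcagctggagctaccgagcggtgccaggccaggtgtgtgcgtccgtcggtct
SLC3A2: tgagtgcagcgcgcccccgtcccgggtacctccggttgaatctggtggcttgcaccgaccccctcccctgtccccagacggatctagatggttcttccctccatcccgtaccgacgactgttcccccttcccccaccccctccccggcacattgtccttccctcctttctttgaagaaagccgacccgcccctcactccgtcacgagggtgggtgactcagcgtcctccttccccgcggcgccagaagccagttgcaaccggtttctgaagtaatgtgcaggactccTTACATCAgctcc
HSPA5: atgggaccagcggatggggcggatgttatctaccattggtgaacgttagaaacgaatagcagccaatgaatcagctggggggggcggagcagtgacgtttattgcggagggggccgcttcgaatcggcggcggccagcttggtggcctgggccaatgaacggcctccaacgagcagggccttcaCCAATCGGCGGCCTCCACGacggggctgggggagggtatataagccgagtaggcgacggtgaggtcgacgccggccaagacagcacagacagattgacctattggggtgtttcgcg

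The heat shock match of HSPA6 lay 74 to 62 bases before the start, and HSPA8 held a pair of matches, 230 to 218 and 55 to 43 bases before it. In DNAJA1 the match lay 4 to 16 bases after the start. Of 44 tested genes on 4 lists of cytosolic chaperones with a promoter in the RefSeq table, 5 (11.4%) held the element, namely CHORDC1, DNAJA1, DNAJB6, HSPA6 and HSPA8. The share was 0.487% of all 27305 promoters and 0.302% of the 11589 of genes tested. The ATF4 element was in 5 of 28 promoters of ATF4 target genes (17.9%), those of ASNS, ATF3, CHAC1, SLC3A2 and SLC7A1. It was in 3.67% of all promoters and 1.64% of those of genes tested. The ER stress element was in 6 of 21 promoters of ER chaperone genes (28.6%), those of CALR, CANX, CRELD2, ERO1B, HSPA5 and HSP90B1. It was in 0.0806% of all promoters and 0.121% of those of genes tested. The sterol element TCACNCCAC was in 0 of 15 promoters of cholesterol synthesis genes, in 1.15% of all and in 1.01% of those of genes tested. The motif TGACGTCA, known as the cyclic AMP response element, was in 1.98% of all promoters and in 3.33% of those of genes tested. It was in 6.91% of 405 promoters of genes that were called and at least 2-fold lower with both nutrients. These calls are under TMM, a scaling explained below. In those 405 the heat shock element was in 1.48% (0.302% of genes tested), the ATF4 element in 3.7% (1.64%), the sterol element in 1.23% (1.01%) and the ER stress element in 0.247% (0.121%). In 1170 promoters of genes called and at least 2-fold higher under TMM the shares, in the same order, were 2.14%, 0.427%, 1.37%, 1.03% and 0%. Under library totals they were 6.33%, 3.16%, 4.43%, 0.633% and 0% in 158 promoters of genes at least 2-fold lower. In 2641 promoters of genes at least 2-fold higher under library totals they were 2.27%, 0.303%, 1.7%, 1.14% and 0.0379%. A match describes the letters in this window and is not a measured binding site.

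Levels are given as CPM, counts scaled so that all libraries have the same total after TMM scaling, as mean ± SD over 3 libraries (n = 3 in each medium) where a mean is given. TMM is a scaling that sets the bulk of genes level between libraries. Log2 changes are both over neither with the standard error (SE) of the fit, and a gene was called when the Benjamini-Hochberg adjusted p of edgeR's quasi-likelihood test over all 16889 genes was under 0.05. Library totals were 16525121, 15615726 and 17300396 counts with both and 18816188, 16118485 and 15997566 with neither, so a floor of 3 counts was 0.173 to 0.192 CPM with both and 0.159 to 0.188 CPM with neither, before TMM scaling. The composition of the libraries differed. The 10 most counted genes held 5.69% to 5.73% of counts with both and 12.3% to 12.4% with neither, and TMM factors were 1.07 to 1.09 with both and 0.793 in each library with neither. Scaling by library totals instead of TMM added 0.44 to the log2 change of the median gene. Changes are given under both scalings because a fall by TMM smaller than that becomes a rise by library totals. A rise by TMM remains a rise. Neither scaling measures RNA per cell, and in bulk samples fewer cells expressing a gene and less of its RNA per cell cannot be told apart.

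Under TMM, 12209 genes (72.3%) were called, 6245 higher (37.0%) and 5964 lower (35.3%) with both nutrients than with neither. Under library totals 13271 genes (78.6%) were called, 10866 higher (64.3%) and 2405 lower (14.2%). Called in the same direction under either scaling were 8650 genes (51.2%), 6245 higher and 2405 lower. Tested against a change of at least 1.2-fold in place of no change, 8788 genes (52.0%) passed by TMM. The called genes at least 2-fold higher numbered 2129 (12.6%) by TMM and 4299 (25.5%) by library totals, and those at least 2-fold lower 710 (4.20%) and 268 (1.59%). All 3 libraries with both lay on the same side of all 3 with neither for 12345 genes (73.1%) by TMM, with the libraries with both all higher for 6373 (37.7%) and all lower for 5972 (35.4%). There were 1641 genes (9.72%) called lower by TMM and higher by library totals, and 0 the other way round. The most abundant of those 1641 were VIM, which encodes the filament protein vimentin (2070 ± 40.9 CPM with both and 2646 ± 32.8 CPM with neither, log2 -0.35 by TMM and 0.09 by library totals), YWHAZ, a 14-3-3 protein gene (log2 -0.15 and 0.29), and the RNA-binding protein gene HNRNPA2B1 (log2 -0.24 and 0.20). The median log2 change of all genes was 0.05 by TMM, with quartiles at -0.39 and 0.58, and 0.49 by library totals.

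**Figure D1:**
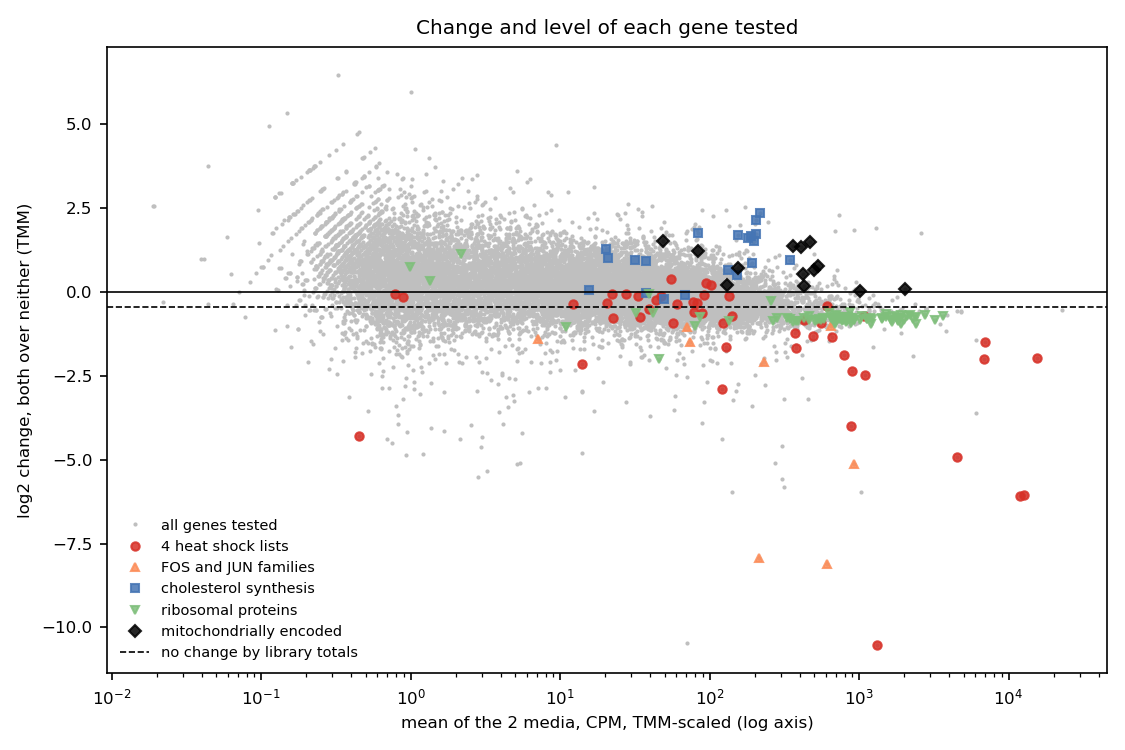
Log2 change, both over neither, by TMM (vertical axis) against the mean level of both media in CPM (horizontal axis, log scale) for each of the 16889 genes tested. The dashed line at -0.44 is where library totals give no change. HSPA6 at -10.52 is the lowest of all genes tested, and 78 of the 83 ribosomal protein genes are lower by library totals too, while the cholesterol synthesis and mitochondrially encoded genes lie mostly above 0.

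Inducible chaperone genes were among the largest falls. HSPA6, an inducible HSP70 gene on chromosome 1 (161524540 to 161526910 in GRCh38, as are all positions below), was at 1.47, 2.03 and 1.87 CPM with both nutrients and at 2567, 2677 and 2657 CPM with neither. Its libraries with both were within a few CPM of 0 and did not overlap the others, and the log2 change was -10.52 ± 0.042 (edgeR adjusted p = 2.06e-200; -10.08 by library totals). HSPA1A, on chromosome 6 (31815464 to 31817946), encodes the main stress-induced HSP70 and was at 384, 381 and 379 CPM with both and 24564, 25110 and 25601 CPM with neither. With neither nutrient it was the second most counted gene of the libraries, at 1.99% of counts, after the elongation factor gene EEF1A1 at 2.12%. Its log2 change was -6.04 ± 0.017 (adjusted p = 1.32e-208; -5.60 by library totals), and that of its neighbour HSPA1B -6.09. HSPA1A and HSPA1B encode nearly the same sequence and HSPA6 has the pseudogene copy HSPA7, which was at most 2 counts with both and 1798 to 2072 counts with neither. The sources used here do not say how reads that fit more than 1 place were counted, so the split between such copies is uncertain. HSPA6 also shares 2371 bases, its whole span, and HSPA1B 1422 bases with another annotated gene on the same strand (AL590385.2 and AL671762.1).

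DNAJB1, the HSP40 cochaperone gene most tied to the heat shock response (chromosome 19, 14514770 to 14529770), was at 291, 297 and 292 CPM with both and 8739, 8795 and 8824 CPM with neither. The media were far apart with little spread within either, and the log2 change was -4.90 ± 0.018 (adjusted p = 1.50e-235; -4.46 by library totals). BAG3, a nucleotide exchange factor of HSP70 that links it to autophagy, averaged 105 ± 3.58 CPM with both and 1668 ± 11.4 CPM with neither (log2 -3.99 ± 0.025). ZFAND2A, an arsenite-inducible proteasome-associated gene, averaged 11.0 ± 0.742 CPM with both and 623 ± 4.96 CPM with neither (log2 -5.82 ± 0.040).

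**Figure D2:**
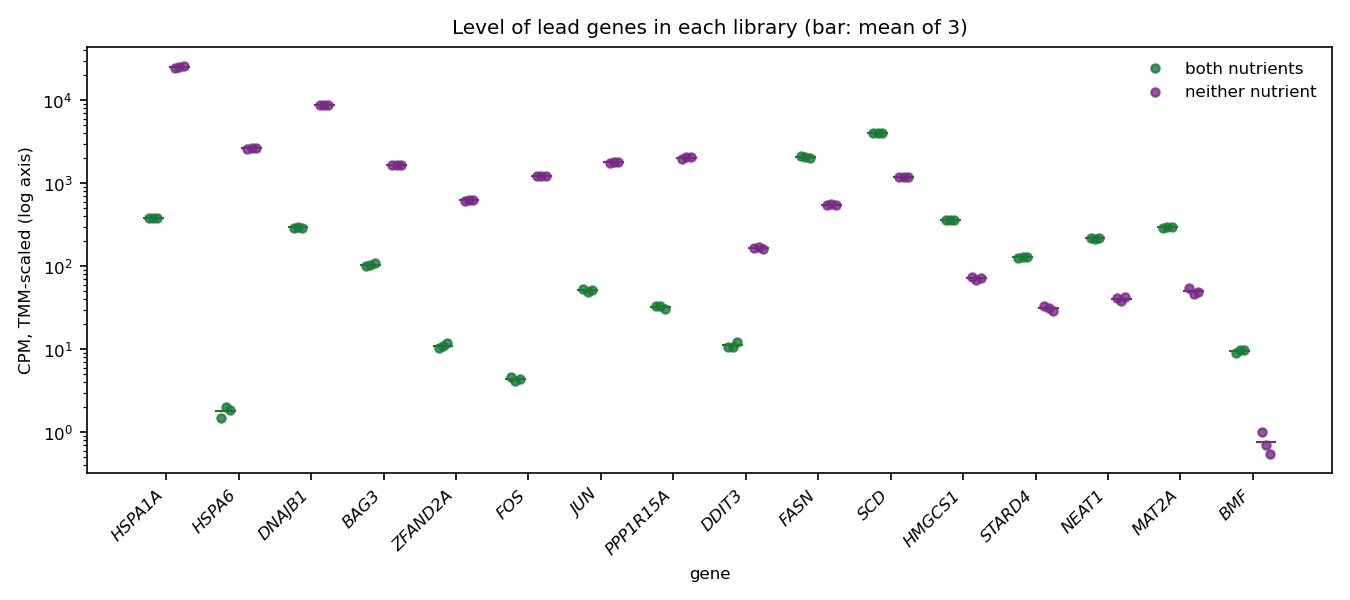
Level of 16 genes in each of the 6 libraries (CPM after TMM scaling, log axis); green points on the left of each gene are libraries with both nutrients, purple points on the right those with neither, and bars are means of 3. For each gene the 3 libraries of a medium lie close together and apart from those of the other medium, from HSPA1A at 379 to 384 CPM with both and 24564 to 25601 CPM with neither to BMF at 8.91 to 9.87 CPM with both and 0.552 to 1.01 CPM with neither.

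Constitutive members of the chaperone lists fell as well, and by less. The cytosolic HSP70 and HSP110 list, which also holds the inducible HSPA1A, HSPA1B and HSPA6, had all 10 genes lower by TMM, with a median log2 change of -2.07. By library totals 9 of these 10 were lower and 1 higher (median -1.62). HSPA8, the constitutive HSP70, averaged 2766 ± 5.21 CPM with both and 10995 ± 168 CPM with neither (log2 -1.99). HSPH1, an HSP110 that helps HSP70 exchange nucleotide, averaged 293 ± 2.52 CPM with both and 1512 ± 30.5 CPM with neither (log2 -2.37). Of 11 genes for HSP90 and its cochaperones 10 were lower and 1 higher by TMM (median -1.21), and 8 lower and 3 higher by library totals (median -0.77). HSP90AA1, the inducible HSP90, was at 6313, 6290 and 6214 CPM with both and 24822, 24534 and 24691 CPM with neither (log2 -1.98 ± 0.013), and the constitutive HSP90AB1 changed by -1.49. The exception that rose was UNC45A, a myosin chaperone gene, at 104 ± 1.84 CPM with both and 86.5 ± 5.00 CPM with neither (log2 0.27).

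The remaining chaperone lists depended more on the scaling. Of 15 HSP40 genes 11 were lower and 2 higher by TMM (median -0.36), and 7 lower and 6 higher by library totals (median 0.09). DNAJA1 (log2 -2.47), DNAJB4 (-2.89) and DNAJB6 (-1.32) fell beside DNAJB1, while DNAJB14, an ER membrane cochaperone gene, rose (0.38). DNAJA4 and DNAJB5 were not called, at 0.773 and 21.9 CPM with both and 0.812 and 22.8 CPM with neither. Of 12 genes for small heat shock proteins and exchange factors 10 were lower and 0 higher by TMM (median -0.45), and 5 lower and 4 higher by library totals (median -0.01). HSPB1, the abundant small heat shock protein gene, averaged 338 ± 10.0 CPM with both and 1237 ± 20.6 CPM with neither (log2 -1.87). All 8 genes for subunits of TRiC, the ring that folds actin and tubulin, were lower under either scaling (median -0.92 by TMM and -0.47 by library totals), with CCT2 at 428 ± 1.55 CPM with both and 966 ± 12.0 CPM with neither. Among 14 mitochondrial chaperone and protease genes 13 were lower and 1 higher by TMM (median -0.69), and 9 lower and 3 higher by library totals (median -0.24). HSPD1, the mitochondrial chaperonin gene, changed by -1.22 and its partner HSPE1 by -1.09, and the protease gene SPG7 was the one that rose (0.59). HSF1, the gene of the heat shock factor itself, averaged 165 ± 4.00 CPM with both and 276 ± 5.90 CPM with neither (log2 -0.74; -0.30 by library totals). Together the 49 genes of the 4 cytosolic lists held 2.08% ± 0.005 of all counts with both and 9.54% ± 0.047 with neither.

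Proteasome genes were lower with both nutrients by small, even changes, and other genes of protein degradation varied more. All 31 proteasome subunit genes were called lower by TMM, between -1.13 and -0.57 with a median of -0.71, and 30 of 31 by library totals with a median of -0.27. PSMC4, a subunit of the base of the regulatory particle, was at 350, 342 and 328 CPM with both and 741, 741 and 750 CPM with neither (log2 -1.13). All 9 ubiquitin and stress ligase genes were lower by TMM (median -0.82, from -5.82 to -0.39), and 7 lower and 1 higher by library totals (median -0.38), with UBB at 604 ± 6.40 CPM with both and 1889 ± 55.8 CPM with neither. Lysosomal genes had 20 lower and 1 higher of 30 by TMM (median -0.24) and 5 lower and 22 higher by library totals (median 0.20), so their direction was set by the scaling. Of 30 autophagy genes 16 were lower and 5 higher by TMM (median -0.18), and 6 lower and 20 higher by library totals (median 0.26). Among all genes tested 35.3% were lower and 37.0% higher by TMM, and 14.2% lower and 64.3% higher by library totals. ULK1, the kinase gene that starts autophagy, rose under either scaling (50.1 ± 1.27 CPM with both and 24.1 ± 1.39 CPM with neither, log2 1.05), and the LC3 gene MAP1LC3B fell under either (146 ± 2.55 CPM with both and 274 ± 2.57 CPM with neither, log2 -0.91).

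Immediate early genes, which encode transcription factors induced within minutes of growth signals or stress, were low with both nutrients. FOS, on chromosome 14 (75278774 to 75282230), was at 4.62, 4.17 and 4.32 CPM with both and 1220, 1218 and 1216 CPM with neither. No library with both exceeded 5 CPM, and the log2 change was -8.12 ± 0.041 (adjusted p = 6.95e-212; -7.67 by library totals). FOSB averaged 1.76 ± 0.309 CPM with both and 430 ± 5.91 CPM with neither (log2 -7.92). JUN, the partner of FOS in the AP-1 dimer, was at 53.5, 48.7 and 52.4 CPM with both and 1763, 1782 and 1818 CPM with neither (log2 -5.12 ± 0.027; -4.67 by library totals). All 8 tested genes of the FOS and JUN families were at least 2-fold lower by TMM (median -1.78) and lower by library totals (median -1.34). The smallest changes among them were in FOSL1 (-1.02) and FOSL2 (-1.04).

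Other early genes were mixed. Of 20 genes on the list with EGR, IER, KLF and NR4A members 15 were lower and 4 higher by TMM (median -1.58), and 14 lower and 6 higher by library totals (median -1.14). EGR1, a zinc finger factor gene, was at 12.7, 12.0 and 12.9 CPM with both and 591, 605 and 591 CPM with neither (log2 -5.57 ± 0.037). IER5, which encodes a regulator of HSF1, was at 27.4, 29.3 and 27.0 CPM with both and 251, 265 and 257 CPM with neither (log2 -3.21). KLF10, a transcription factor gene of the KLF list, averaged 51.9 ± 1.00 CPM with both and 225 ± 5.91 CPM with neither (log2 -2.12). SRF, the serum response factor gene (log2 0.17), IER3 (0.24) and KLF2 (0.36) were called higher by small amounts. Genes of ERK feedback went in opposite directions. The phosphatase genes DUSP1 (15.7 ± 0.756 CPM with both and 535 ± 6.63 CPM with neither, log2 -5.09), DUSP2 (-4.79) and DUSP5 (-2.76) fell, while SPRY4 (175 ± 4.87 CPM with both and 97.5 ± 3.25 CPM with neither, log2 0.84), SPRY1 (1.32) and SPRED1 (0.68), which encode inhibitors of the pathway, rose. In all 7 of 13 ERK feedback genes were lower and 5 higher by TMM, and 6 lower and 7 higher by library totals.

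Growth arrest genes and NF-kB genes were lower too. Of 7 genes on the GADD45 and growth arrest list 6 were lower and 1 higher under either scaling (median -2.14 by TMM and -1.69 by library totals). PPP1R15A, which encodes the phosphatase subunit that reverses eIF2 phosphorylation (chromosome 19, 48872392 to 48876057), was at 33.2, 33.6 and 30.7 CPM with both and 1978, 2051 and 2045 CPM with neither. The libraries of the media were far apart, with a log2 change of -5.96 ± 0.028 (adjusted p = 3.98e-219; -5.52 by library totals). GADD45B averaged 33.4 ± 2.96 CPM with both and 351 ± 1.47 CPM with neither (log2 -3.39), and SERTAD2 was the member that rose (0.29). Of 15 tested NF-kB subunits, inhibitors and targets 13 were lower and 2 higher by TMM (median -0.64), and 8 lower and 4 higher by library totals (median -0.20). RELB, a subunit gene, averaged 68.6 ± 2.98 CPM with both and 157 ± 0.700 CPM with neither (log2 -1.19), and the members that rose were REL (9.89 ± 0.380 CPM with both and 7.33 ± 0.944 CPM with neither, log2 0.42) and TNFAIP2 (1.03).

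Targets of ATF4 were lower as a group with both nutrients, though some did not differ. Of 34 tested targets 24 were lower and 4 higher by TMM, with a median of -0.80, and 19 lower and 10 higher by library totals, with a median of -0.36. ATF3, itself a stress transcription factor gene, was at 4.51, 4.05 and 4.75 CPM with both and 281, 280 and 279 CPM with neither (log2 -5.97 ± 0.051). DDIT3, which encodes CHOP, was at 10.6, 10.5 and 12.2 CPM with both and 166, 170 and 163 CPM with neither (log2 -3.89 ± 0.046; -3.45 by library totals). DDIT4, an inhibitor of mTORC1, averaged 11.1 ± 0.668 CPM with both and 232 ± 2.80 CPM with neither (log2 -4.38). CHAC1, a glutathione-degrading enzyme gene named here for its promoter and chosen after its values were seen, averaged 5.19 ± 0.290 CPM with both and 49.9 ± 2.39 CPM with neither (log2 -3.26), and SLC3A2, the shared heavy chain of several amino acid transporters, 119 ± 1.58 CPM with both and 706 ± 11.0 CPM with neither (log2 -2.57). ATF4 RNA itself averaged 173 ± 0.956 CPM with both and 524 ± 7.82 CPM with neither (log2 -1.60). ASNS, the asparagine synthetase gene, averaged 2.42 ± 0.234 CPM with both and 10.4 ± 2.12 CPM with neither (log2 -2.09), a level that is uncertain because 20425 bases of the gene lie within another annotated gene on the same strand. DDIT3 likewise shares 2769 bases with such a gene (AC022506.1). Members that rose were VLDLR, a lipoprotein receptor gene (log2 1.07), ALDH1L2, a mitochondrial folate enzyme gene (1.05), and SLC38A2, a neutral amino acid transporter gene (0.28). SLC7A11, the cystine transporter gene, did not pass at 16.1, 18.2 and 15.7 CPM with both and 13.8, 15.5 and 16.0 CPM with neither, where the libraries overlapped (log2 0.15 ± 0.070, edgeR adjusted p = 0.0699), but passed by library totals (0.59, adjusted p = 5.47e-14). CBS, SLC7A1, SLC6A9, ADM2 and INHBE were also not called by TMM, between -0.15 and 0.04.

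Other lists of amino acid supply genes were also counted, and those of transporters and of serine and one-carbon enzymes share members such as SLC3A2 and MTHFD2 with the ATF4 targets. All 20 cytosolic aminoacyl-tRNA synthetase genes were lower by TMM (median -0.57, from -1.04 to -0.22), and 15 lower and 4 higher by library totals (median -0.13). Of 20 amino acid transporter genes 5 were lower, 4 higher and 11 not called by TMM (median -0.06), and 14 were higher and 4 lower by library totals (median 0.38). Among 14 serine and one-carbon genes 8 were lower and 4 higher by TMM, with MTHFD2, a mitochondrial folate enzyme, at 145 ± 4.02 CPM with both and 331 ± 5.23 CPM with neither (log2 -1.19). Under library totals 5 of the 14 were lower and 8 higher.

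ER chaperone genes were mostly lower by TMM and divided by library totals. HSPA5, the ER HSP70 whose promoter is printed above, was at 581, 572 and 550 CPM with both and 1069, 1059 and 1062 CPM with neither, with no overlap (log2 -0.90 ± 0.016; -0.46 by library totals). Of 22 ER chaperone and folding genes 17 were lower and 2 higher by TMM (median -0.34), and 8 lower and 12 higher by library totals (median 0.11). DNAJB9 (-1.45) and TXNDC5 (-0.76) fell beside it and ERO1B (0.53) and TXNDC11 (0.24) rose, while CRELD2 was at 25.2 ± 1.02 CPM with both and 26.4 ± 0.693 CPM with neither without passing (log2 -0.06, adjusted p = 0.366). Genes of ER-associated degradation had 9 of 18 higher and 5 lower by TMM (median 0.05), and 15 higher and 2 lower by library totals (median 0.49), the same medians as all genes tested. EDEM3, a mannosidase gene of that pathway, was at 48.7, 43.0 and 44.0 CPM with both and 9.26, 7.28 and 9.86 CPM with neither (log2 2.36 ± 0.073). HERPUD1, an ER stress gene, averaged 27.6 ± 1.41 CPM with both and 97.8 ± 3.81 CPM with neither (log2 -1.83).

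HMOX1, the heme oxygenase gene induced by oxidative stress (chromosome 22, 35380361 to 35394214), was at 23.5, 25.5 and 23.4 CPM with both and 573, 587 and 590 CPM with neither (log2 -4.60 ± 0.033; -4.15 by library totals). It led the NRF2, glutathione and thioredoxin list, of which 17 of 22 tested genes were lower and 2 higher by TMM (median -0.49), and 11 lower and 7 higher by library totals (median -0.05). OSGIN1 fell (34.7 ± 2.97 CPM with both and 118 ± 0.845 CPM with neither, log2 -1.76), as did GCLM, the modifier subunit of glutathione synthesis (-1.19). NQO1, a quinone reductase gene often used as a readout of NRF2, did not pass at 235 ± 3.47 CPM with both and 231 ± 3.37 CPM with neither (log2 0.02, adjusted p = 0.415; 0.47 by library totals). The metallothionein gene MT2A averaged 111 ± 4.38 CPM with both and 258 ± 15.2 CPM with neither (log2 -1.22). Of 14 tested genes for secreted stress factors 10 were lower and 1 higher by TMM (median -0.75), and 9 lower and 3 higher by library totals. Of 17 tested hypoxia targets 9 were lower and 4 higher by TMM (median -0.24), and 7 lower and 9 higher by library totals. For all genes tested the shares were 35.3% lower and 37.0% higher by TMM, and 14.2% lower and 64.3% higher by library totals. The angiogenic factor gene VEGFA was at 19.1 ± 1.29 CPM with both and 49.8 ± 2.92 CPM with neither (log2 -1.38).

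Lipid synthesis genes were higher with both nutrients. HMGCS1, which makes the precursor of mevalonate (chromosome 5, 43289395 to 43313512), was at 366, 364 and 365 CPM with both and 74.3, 67.4 and 72.0 CPM with neither. The groups did not overlap, and the log2 change was 2.35 ± 0.032 (adjusted p = 9.98e-137; 2.80 by library totals). LSS, which closes the sterol rings, averaged 334 ± 7.26 CPM with both and 76.1 ± 1.75 CPM with neither (log2 2.14), and MSMO1, a later step, 130 ± 2.29 CPM with both and 37.9 ± 2.28 CPM with neither (1.77). Of 20 cholesterol synthesis genes 16 were higher and 2 lower by TMM, with a median of 1.00, and all 20 were higher by library totals, with a median of 1.44. NSDHL (log2 -0.22) and EBP (-0.09, adjusted p = 0.0452) were the pair called lower by TMM, and PMVK (-0.04) and CYP51A1 (0.07) were not called.

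FASN, the fatty acid synthase gene (chromosome 17, 82078333 to 82098332), was at 2129, 2053 and 1992 CPM with both and 550, 556 and 547 CPM with neither (log2 1.90 ± 0.019, adjusted p = 2.30e-156; 2.34 by library totals). SCD, the desaturase that makes oleate, was at 4004, 4038 and 4001 CPM with both and 1194, 1173 and 1187 CPM with neither (log2 1.76 ± 0.016). With both nutrients SCD was the third most counted gene, at 0.432% of counts. LPIN1, an enzyme of glycerolipid synthesis, averaged 286 ± 1.03 CPM with both and 102 ± 0.998 CPM with neither (log2 1.49), and ACLY, which makes cytosolic acetyl-CoA from citrate, 459 ± 10.7 CPM with both and 277 ± 0.890 CPM with neither (0.73). Of 22 tested fatty acid and glycerolipid genes 13 were higher and 6 lower by TMM (median 0.42), and 17 higher and 2 lower by library totals (median 0.86). Elongase genes ELOVL5 (log2 -0.67) and ELOVL1 (-0.47) and MID1IP1 (-0.62) were among those called lower. Cholesterol synthesis genes together held 0.387% ± 0.003 of counts with both and 0.117% ± 0.0003 with neither, and fatty acid and glycerolipid genes 0.890% ± 0.005 with both and 0.282% ± 0.002 with neither.

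Most SREBP factors and sterol feedback genes were higher with both nutrients. SREBF1 averaged 370 ± 19.3 CPM with both and 180 ± 4.16 CPM with neither (log2 1.04), and SREBF2 214 ± 6.95 CPM with both and 141 ± 5.07 CPM with neither (0.60). INSIG1, which holds the SREBP complex in the ER, averaged 324 ± 6.43 CPM with both and 166 ± 1.96 CPM with neither (0.96), and STARD4, a sterol carrier, 129 ± 2.60 CPM with both and 31.2 ± 2.36 CPM with neither (2.04). Of 12 genes on that list 8 were higher and 3 lower by TMM (median 0.45), and 11 higher and 1 lower by library totals (median 0.89). MYLIP, a ubiquitin ligase gene, fell under either scaling (13.8 ± 1.43 CPM with both and 26.9 ± 1.28 CPM with neither, log2 -0.96), and SCAP was lower by TMM (-0.18) and higher by library totals (0.27).

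**Figure D3:**
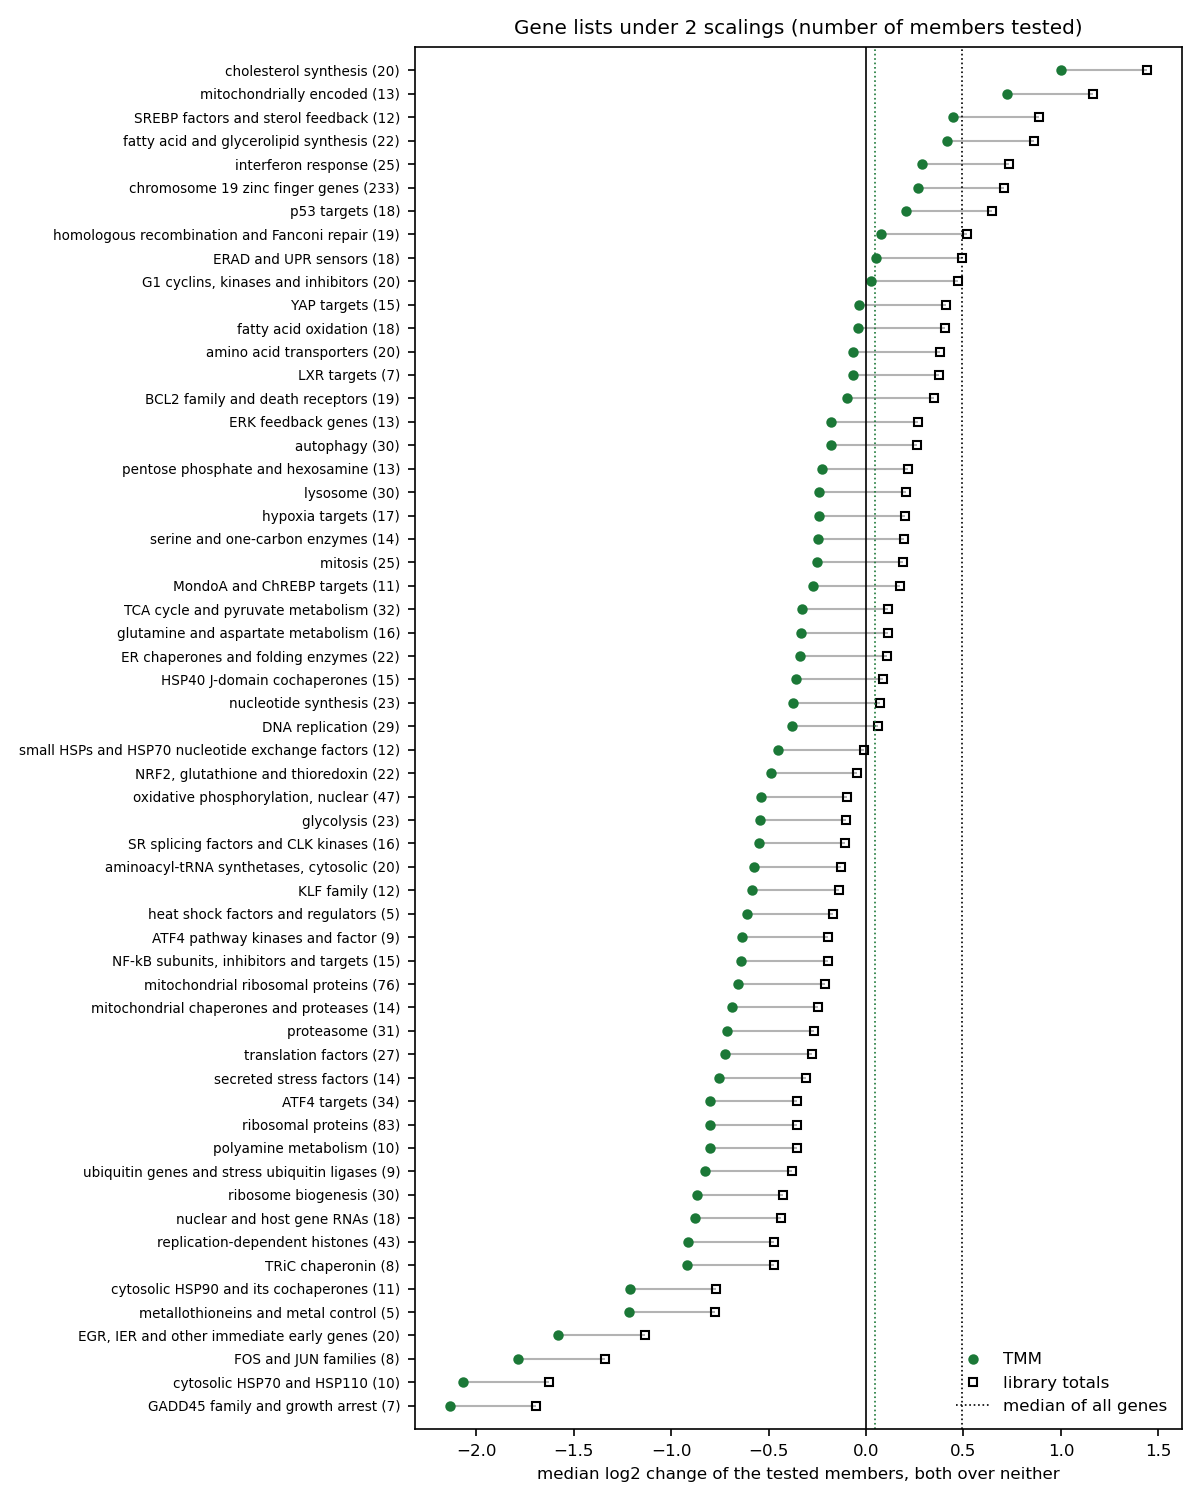
Median log2 change, both over neither, of the tested members of each gene list, leaving out lists of cell type markers, by TMM (filled circles) and by library totals (open squares), with the number of members tested in parentheses. The dotted lines are the medians of all genes, 0.05 by TMM and 0.49 by library totals. Growth arrest, immediate early, metal and HSP70 and HSP90 lists lie at the bottom with medians below -1 by TMM, cholesterol synthesis at the top with 1.00, and the lists in the middle lie on different sides of 0 under the scalings.

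Glycolysis genes were mostly lower with both nutrients by TMM and close to level by library totals. Of 23 tested genes 20 were lower and 3 higher by TMM (median -0.54), and 14 lower and 6 higher by library totals (median -0.10). The glucose transporter gene SLC2A3 was at 41.0, 41.9 and 42.9 CPM with both and 181, 186 and 182 CPM with neither (log2 -2.12 ± 0.035; -1.68 by library totals). SLC2A1, another glucose transporter gene, averaged 76.4 ± 2.72 CPM with both and 103 ± 3.66 CPM with neither (log2 -0.43), and by library totals did not pass (0.02, adjusted p = 0.663). In CPM, which takes no account of transcript length, SLC2A1 was above SLC2A3 with both nutrients and below it with neither. HK2, the hexokinase gene, averaged 58.6 ± 2.77 CPM with both and 85.4 ± 1.81 CPM with neither (log2 -0.54; -0.10 by library totals). The regulators PFKFB4 (log2 1.21) and PFKFB2 (0.52) and the lactate exporter SLC16A3 (0.17) rose. TXNIP, a glucose-induced gene, had 4, 5 and 7 counts with both and 8, 5 and 3 counts with neither and was too low to test, and its relative ARRDC4 was at 1.06 ± 0.280 CPM with both and 0.786 ± 0.363 CPM with neither without passing (adjusted p = 0.179).

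Respiratory chain genes differed by the genome that encodes them. Of 47 tested nuclear genes 45 were lower and 2 higher by TMM (median -0.54, none changed 2-fold), and 24 lower and 13 higher by library totals (median -0.10). Abundant protein-coding genes with short exons, described below, had medians of -0.54 and -0.10 as well, and 86.8% of them were lower by TMM. All 13 protein genes of the mitochondrial genome were higher under either scaling, with a median of 0.72 by TMM and 1.17 by library totals. MT-CO3, a subunit of cytochrome oxidase, was at 688, 694 and 699 CPM with both and 248, 250 and 243 CPM with neither (log2 1.49 ± 0.022). The 13 were uneven, as MT-CYB (1.38) and MT-ATP6 (1.36) rose more than 2-fold while MT-CO1 (2112 ± 6.99 CPM with both and 1973 ± 38.1 CPM with neither, log2 0.10) and MT-ND4 (1032 ± 5.29 CPM with both and 999 ± 33.7 CPM with neither, log2 0.05) changed little. The mitochondrial ribosomal RNA genes, named after their values were seen, went the other way, with MT-RNR2 at 958 ± 17.6 CPM with both and 3611 ± 46.2 CPM with neither (log2 -1.91; -1.47 by library totals). Mitochondrial mRNA held 0.830% ± 0.012 of counts with both and 0.435% ± 0.009 with neither, and mitochondrial ribosomal RNA 0.118% ± 0.003 with both and 0.328% ± 0.005 with neither. The libraries were made from poly(A) RNA, and how far selection of these short-tailed RNAs moved with the medium was not tested.

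Genes of translation were lower with both nutrients than with neither. Of 83 tested cytosolic ribosomal protein genes 79 were lower and 2 higher by TMM, with a median of -0.80, and 78 lower and 5 higher by library totals, with a median of -0.36. RPS19 averaged 1298 ± 7.72 CPM with both and 2528 ± 84.9 CPM with neither (log2 -0.96 ± 0.026). Together the ribosomal protein genes held 6.46% ± 0.052 of counts with both and 8.22% ± 0.103 with neither. Translation factors had 26 lower and 1 higher of 27 by TMM (median -0.72), and 22 lower and 4 higher by library totals (median -0.28). EIF1, which guards the choice of start codon, averaged 258 ± 7.32 CPM with both and 690 ± 13.5 CPM with neither (log2 -1.42), while the translation repressor gene EIF4EBP2 rose (118 ± 3.01 CPM with both and 65.2 ± 2.64 CPM with neither, log2 0.85). Ribosome biogenesis genes had 26 lower and 2 higher of 30 by TMM (median -0.87), and 21 lower and 4 higher by library totals, with BOP1 at 158 ± 5.65 CPM with both and 365 ± 5.39 CPM with neither (log2 -1.21). Mitochondrial ribosomal protein genes had 72 lower and 2 higher of 76 by TMM (median -0.66), and 48 lower and 13 higher by library totals (median -0.21). MRPL18, whose transcript is also known to give a cytosolic protein in heat shock, showed the largest fall of that list, at 109 ± 1.15 CPM with both and 449 ± 4.65 CPM with neither (log2 -2.04). Of 18 tested nuclear RNAs and host genes of small nucleolar RNAs 15 were lower and 3 higher by TMM (median -0.88), and 13 lower and 4 higher by library totals (median -0.43), and the host genes SNHG17 (-1.94), SNHG7 (-1.63) and SNHG12 (-1.55) fell.

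Cell cycle genes showed small changes whose direction often followed the scaling. Of 29 DNA replication genes 24 were lower and 3 higher by TMM (median -0.38), and 9 lower and 13 higher by library totals (median 0.06). MCM2, a subunit of the replicative helicase, averaged 300.4 ± 5.47 CPM with both and 463 ± 2.98 CPM with neither (log2 -0.62; -0.18 by library totals), and FEN1, the flap nuclease gene, 84.7 ± 2.50 CPM with both and 72.2 ± 3.44 CPM with neither (log2 0.23). Of 25 mitosis genes 16 were lower and 3 higher by TMM (median -0.25), and 7 lower and 17 higher by library totals (median 0.19). MKI67, the proliferation marker, was at 469, 478 and 480 CPM with both and 491, 479 and 491 CPM with neither, which did not pass by TMM (log2 -0.03, edgeR adjusted p = 0.152) and was higher by library totals (0.41, adjusted p = 4.18e-41). Nucleotide synthesis genes had 19 lower and 0 higher of 23 by TMM, led by CTPS1 (-1.01), and 8 lower and 11 higher by library totals. Of 43 tested genes for replication-dependent histones, whose mRNAs mostly lack poly(A), 37 were lower and 1 higher by TMM (median -0.91), and 21 lower and 2 higher by library totals. The inhibitor gene CDKN1A fell (54.6 ± 0.591 CPM with both and 156 ± 2.96 CPM with neither, log2 -1.51) and CDKN2B rose (54.2 ± 1.72 CPM with both and 22.0 ± 0.434 CPM with neither, log2 1.30).

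Genes of other metabolic branches were mixed. Of 32 tested genes of the citric acid cycle and pyruvate use 23 were lower and 5 higher by TMM (median -0.33), and 11 lower and 16 higher by library totals (median 0.11). The subunit genes of the mitochondrial isocitrate dehydrogenase fell, with IDH3B at 128 ± 2.80 CPM with both and 206 ± 1.40 CPM with neither (log2 -0.69), while the cytosolic enzyme gene IDH1, which makes NADPH, rose (121 ± 3.56 CPM with both and 56.3 ± 0.642 CPM with neither, log2 1.10), as did PC, the pyruvate carboxylase gene (0.71). In the hexosamine branch OGT and OGA, the genes of the enzymes that add and remove O-linked N-acetylglucosamine, both rose (149 ± 3.26 CPM with both and 61.7 ± 3.69 CPM with neither, log2 1.27, and 223 ± 1.68 CPM with both and 121 ± 2.25 CPM with neither, log2 0.88), and UAP1, which makes the donor sugar, fell (242 ± 2.13 CPM with both and 659 ± 11.0 CPM with neither, log2 -1.45). Of 16 glutamine and aspartate genes 14 were lower and 1 higher by TMM (median -0.33), and 5 lower and 7 higher by library totals, with the transaminase gene GOT1 at 63.7 ± 1.97 CPM with both and 132 ± 2.54 CPM with neither (log2 -1.05). Of 10 polyamine genes 7 were lower under either scaling and 2 higher by TMM (median -0.80). Within that list ODC1, the first enzyme, was at 322 ± 11.3 CPM with both and 719 ± 1.85 CPM with neither (log2 -1.16), and AMD1, which supplies the aminopropyl groups, rose (141 ± 1.02 CPM with both and 85.7 ± 2.22 CPM with neither, log2 0.72).

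Genes of splicing and of cell death moved in both directions, where 72.3% of all genes tested were called by TMM. Of 16 SR splicing factor and CLK kinase genes 14 were lower and 1 higher by TMM (median -0.55), and 8 lower and 6 higher by library totals. CLK1, a kinase that acts on SR proteins, averaged 40.3 ± 0.793 CPM with both and 269 ± 6.36 CPM with neither (log2 -2.74), and its relative CLK2 rose (25.5 ± 1.10 CPM with both and 10.3 ± 1.80 CPM with neither, log2 1.32). Of 19 tested genes of the BCL2 family and death receptors 9 were lower and 4 higher by TMM, and 2 lower and 16 higher by library totals, with PMAIP1, which encodes NOXA, at 16.1 ± 1.32 CPM with both and 41.7 ± 2.58 CPM with neither (log2 -1.37). Among homologous recombination genes 8 of 19 were higher and 8 lower by TMM, and 14 higher and 3 lower by library totals. Of all genes tested 37.0% were higher and 35.3% lower by TMM, and 64.3% higher and 14.2% lower by library totals. In that list BRCA1 was at 73.0 ± 0.643 CPM with both and 54.3 ± 3.23 CPM with neither (log2 0.42), and FANCE at 28.5 ± 0.368 CPM with both and 53.2 ± 4.46 CPM with neither (log2 -0.91). Of 15 YAP targets and partners 7 were lower and 5 higher by TMM, and 5 lower and 9 higher by library totals. The matricellular gene CCN2 was at 76.1 ± 2.38 CPM with both and 150 ± 2.94 CPM with neither (log2 -0.98), and YAP1 itself at 152 ± 1.36 CPM with both and 111 ± 6.01 CPM with neither (log2 0.45). SLC30A1, a zinc exporter gene induced by metal, fell (5.23 ± 0.867 CPM with both and 33.8 ± 2.57 CPM with neither, log2 -2.69), and SLC39A10, a zinc importer gene, rose (129 ± 2.07 CPM with both and 49.5 ± 2.81 CPM with neither, log2 1.38).

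The largest rises were in genes of low level. BMF, which encodes a BH3-only protein that promotes apoptosis (chromosome 15, 40087890 to 40108892), was at 8.91, 9.83 and 9.87 CPM with both and 1.01, 0.705 and 0.552 CPM with neither (log2 3.62 ± 0.186, adjusted p = 2.12e-45; 4.06 by library totals). TP53INP1, a stress protein gene that acts in autophagy, was at 28.9, 31.5 and 30.1 CPM with both and 3.82, 3.68 and 2.76 CPM with neither (log2 3.13 ± 0.098). MAT2A, which makes S-adenosylmethionine (chromosome 2, 85539165 to 85545280), was at 292, 293 and 295 CPM with both and 55.4, 46.6 and 49.0 CPM with neither (log2 2.54 ± 0.034, adjusted p = 2.58e-136; 2.98 by library totals). MAT2A was the only one of the 12 largest rises above 100 CPM with both nutrients. The other protein-coding genes among the 12 were CCDC144A (log2 3.29), which shares bases with another annotated gene, the organic anion transporter gene SLCO4C1 (2.99), the zinc finger gene ZNF608 (2.97), the receptor gene NOTCH3 (2.60) and PPL, which encodes periplakin (2.55). TP53INP1 is known as a p53 target, though the line lacks functional p53. Of 18 genes on the p53 list 9 were higher and 6 lower by TMM (median 0.20), and 14 higher and 4 lower by library totals. The shares over all genes tested were 37.0% higher and 35.3% lower by TMM, and 64.3% higher and 14.2% lower by library totals.

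RUSC1-AS1, an antisense gene on chromosome 1 (155316863 to 155324176), had the largest rise among genes of at least 5 CPM, at 17.4, 17.7 and 18.6 CPM with both and 1.01, 0.783 and 0.710 CPM with neither (log2 4.40 ± 0.163). It overlaps genes on the opposite strand, sharing 3804 bases with FDPS, a gene of cholesterol synthesis that rose (297 ± 5.50 CPM with both and 102 ± 3.65 CPM with neither, log2 1.54), and 3281 bases with RUSC1 (74.0 ± 2.70 CPM with both and 70.9 ± 1.74 CPM with neither, log2 0.06, adjusted p = 0.149). The kit keeps the strand, but the sources used here do not say whether the counting used it, so reads of RUSC1-AS1 and of its neighbours cannot be told apart with certainty. Other noncoding genes that rose were the processed pseudogene CICP14 (11.5 ± 0.598 CPM with both and 1.10 ± 0.212 CPM with neither, log2 3.37), ADIRF-AS1 (15.5 ± 2.35 CPM with both and 2.02 ± 0.599 CPM with neither, log2 2.90), which overlaps annotated genes on both strands, and LINC00205 (2.61). NEAT1, the RNA that builds paraspeckles (chromosome 11, 65422774 to 65445540), was at 221, 216 and 216 CPM with both and 40.9, 37.7 and 42.1 CPM with neither (log2 2.43 ± 0.031; 2.88 by library totals). OIP5-AS1 (1.35) and TUG1 (1.11) rose as well. HSP90AA2P, a pseudogene of HSP90AA1, averaged 93.8 ± 5.51 CPM with both and 368 ± 4.73 CPM with neither (log2 -1.97), close to the change of its parent gene, and its reads may be shared with it.

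Zinc finger genes of chromosome 19, most of which encode repressors of transposable elements, leaned higher. Of 233 tested, 126 were higher and 54 lower by TMM (median 0.27), and 180 higher and 21 lower by library totals (median 0.71). Over all genes tested 37.0% were higher and 35.3% lower by TMM, and 64.3% higher and 14.2% lower by library totals. In the 2 lowest quintiles of protein-coding genes by level 43.0% and 48.6% were higher by TMM, and 66.9% and 76.7% by library totals. How far level shares in the counts of the zinc finger genes was not tested. ZNF493 averaged 8.69 ± 0.646 CPM with both and 1.06 ± 0.460 CPM with neither (log2 2.99), and ZNF460 fell (0.989 ± 0.208 CPM with both and 6.71 ± 0.998 CPM with neither, log2 -2.75). Interferon response genes had 14 higher and 7 lower of 25 by TMM (median 0.29), and 21 higher and 2 lower by library totals, with RIGI, a sensor of viral RNA, at 30.3 ± 2.92 CPM with both and 14.8 ± 0.328 CPM with neither (log2 1.03), and B2M, the light chain of class I antigen-presenting molecules, at 219 ± 1.55 CPM with both and 338 ± 4.75 CPM with neither (log2 -0.63).

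Across all genes the change moved with summed exon length and with level. Summed exon length counts the bases covered by any annotated exon of a gene and can exceed the length of the transcript expressed. Protein-coding genes in the shortest quintile by summed exon length (207 to 2953 bases) had a median log2 change of -0.27, and those in the next quintiles -0.13, -0.01, 0.12 and, from 8364 bases up, 0.29. By library totals the same medians ran upward through 0.17, 0.31, 0.43, 0.57 and 0.73. In the shortest quintile 20.6% of genes were called higher and 53.8% lower by TMM, and in the longest 57.3% higher and 23.0% lower. By mean level the quintiles, lowest first, had medians of 0.51, 0.20, -0.0003, -0.11 and -0.35. Within the more abundant genes (the top 2 quintiles by level) the order by length was kept, at -0.54 in the shortest and 0.12 in the longest. In that shortest group 86.8% of genes were called lower by TMM and 51.9% by library totals, where the median was -0.10. Ribosomal, proteasome and respiratory genes are abundant, with median summed exon lengths of 3002, 4490 and 2708 bases, and how far length and level share in the changes of those lists was not tested. By annotation the medians were 0.52 for antisense genes, 0.47 for lincRNAs, 0.01 for protein-coding genes and -0.53 for processed pseudogenes.

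**Figure D4:**
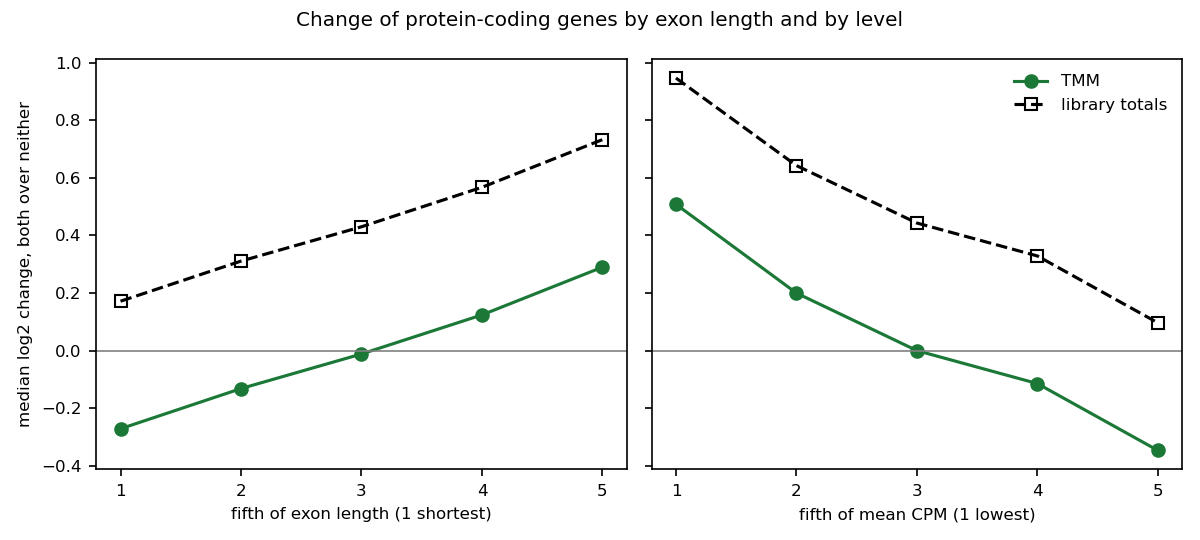
Median log2 change, both over neither, of protein-coding genes in quintiles of summed exon length (left) and of mean level (right), by TMM and by library totals. The medians climb from -0.27 to 0.29 with length by TMM and decline from 0.51 to -0.35 with level.

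Levels in the media with a single nutrient, given by TMM alone, show that the medium with both was not always at the far end from the medium with neither. HSPA1A averaged 381 ± 2.26 CPM with both, 66.2 ± 2.69 with glucose alone, 3186 ± 29.7 with glutamine alone and 25092 ± 519 with neither, so in order of level glucose came lowest, then both, glutamine and neither. Each neighbour in that order differed (edgeR adjusted p at most 4.74e-148). HSP90AA1 stood at 6272 ± 51.9 CPM with both, 2051 ± 17.4 with glucose, 4507 ± 31.9 with glutamine and 24682 ± 144 with neither, so with both it was above each single nutrient (log2 both over glucose 1.61, both over glutamine 0.48). FOS, at 4.37 ± 0.230 CPM with both, 15.5 ± 0.720 with glucose, 71.3 ± 2.71 with glutamine and 1218 ± 2.22 with neither, was lowest with both. HMOX1 was at 24.2 ± 1.18 CPM with both and 49.5 ± 1.75 with glucose, and at 622 ± 7.95 with glutamine and 583 ± 8.88 with neither. The last pair was close together by TMM although called different (log2 glutamine over neither 0.09).

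Several ER stress and amino acid stress genes were higher with a single nutrient than with both or with neither. HSPA5 averaged 568 ± 16.1 CPM with both, 2337 ± 31.4 with glucose, 6345 ± 21.6 with glutamine and 1063 ± 5.00 with neither. TRIB3, a pseudokinase that feeds back on ATF4, averaged 29.8 ± 1.80 with both, 656 ± 5.10 with glucose, 360 ± 3.99 with glutamine and 68.9 ± 1.53 with neither. SLC7A11 was at 16.7 ± 1.34 with both, 279 ± 4.79 with glucose, 128 ± 2.15 with glutamine and 15.1 ± 1.14 with neither, so its near equality with both and neither lay at the low end of the 4 media. DDIT3 was at 11.1 ± 0.952 CPM with both and between 166 and 255 CPM in the other 3 media. For each of these genes the both minus glucose and both minus glutamine differences were called (log2 from -4.52 to -2.04).

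FASN, INSIG1 and HMGCS1 had their highest level with both nutrients and their lowest with glucose alone. FASN averaged 2058 ± 69.1 CPM with both, 179 ± 3.03 with glucose, 445 ± 6.56 with glutamine and 551 ± 4.40 with neither. INSIG1 was at 324 ± 6.43 CPM with both, 31.0 ± 2.11 with glucose, 46.9 ± 2.62 with glutamine and 166 ± 1.96 with neither. HMGCS1 was at 365 ± 0.687 CPM with both, 41.2 ± 1.71 with glucose, 74.4 ± 3.50 with glutamine and 71.3 ± 3.52 with neither, and the last pair did not pass the test (log2 glutamine over neither 0.06, edgeR adjusted p = 0.136). The order with NEAT1 was another, 218 ± 3.05 CPM with both, 738 ± 1.68 with glucose, 291 ± 2.65 with glutamine and 40.2 ± 2.30 with neither. The comparisons with a single nutrient share libraries with the comparison of both against neither, and the interaction of the nutrients was not tested here. TMM factors were 1.01 in each library with glutamine alone, 1.07 to 1.09 with glucose alone and 0.793 in each with neither. Small differences between a single nutrient and neither, such as those of HMGCS1, HMOX1 and FASN with glutamine, therefore depend on the scaling. In the test of both over glucose 67.9% of all genes were called and in that of both over glutamine 65.6%.

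**Figure D5:**
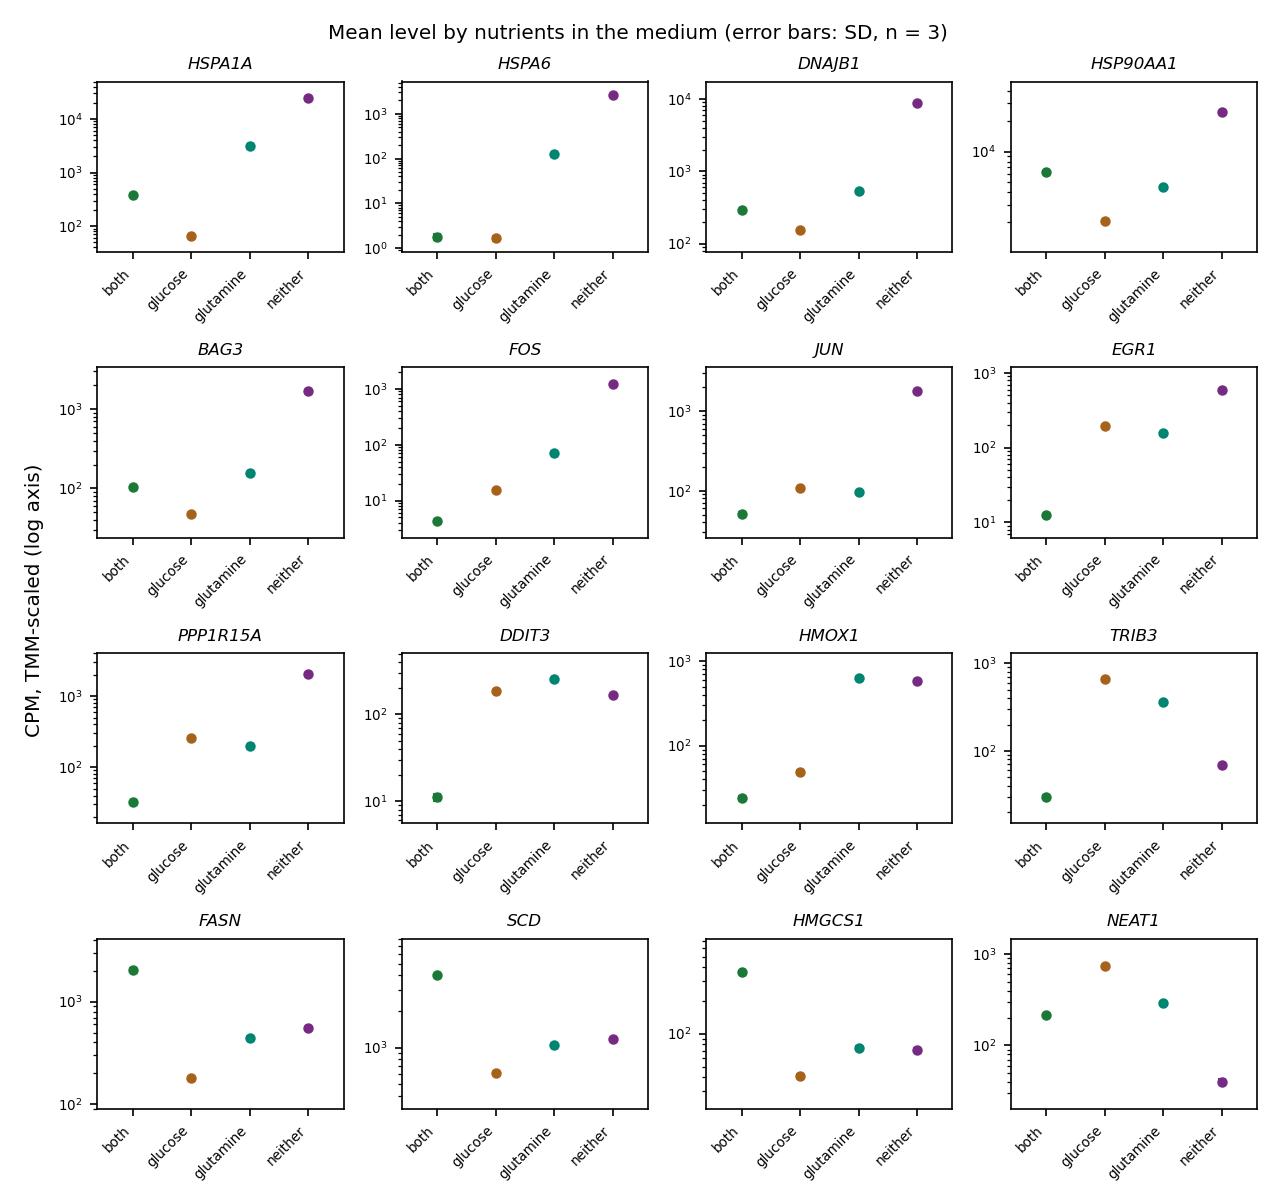
Mean level of 16 genes in the media with both nutrients, glucose alone, glutamine alone and neither (CPM after TMM scaling, log axes that differ between panels; error bars are SDs of 3 libraries, mostly smaller than the points). HSPA1A, HSPA6, DNAJB1, HSP90AA1, BAG3, FOS, JUN, EGR1 and PPP1R15A stand highest with neither, FASN, SCD and HMGCS1 highest with both, and TRIB3 and DDIT3 highest with a single nutrient.

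Markers of an epithelial tumour line were mixed. VIM was among the abundant genes. Of the simple epithelial keratin genes KRT8 and KRT18 were lower by TMM. KRT8 was at 287 to 303 CPM with both and 554 to 578 CPM with neither (log2 -0.92). KRT18 was at 321 to 343 CPM with both and 649 to 679 CPM with neither (log2 -0.99). KRT7, KRT19, CDH2 and FN1 were not called by TMM. KRT19 stayed under 2.1 CPM, and EPCAM and CDH1 were too low to be tested. In all 3 of 7 tested markers of the line were lower and 0 higher by TMM (median -0.35). By library totals 2 were lower and 4 higher (median 0.09). Markers of fibroblasts, endothelium and leukocytes together held at most 0.0021% of counts in a library for each set. Of their genes COL1A1, PDGFRB, ENG and ITGAM were called higher by TMM, with log2 changes of 1.90, 1.45, 0.22 and 0.35. Counts of genes with at least 1 read differed between libraries of a medium, at 25814, 26876 and 33716 with both and 24219, 28337 and 24425 with neither. Replicate 3 with both and replicate 2 with neither held the most such genes of their media, and without them and replicate 1 of glucose alone, a choice made after seeing the data, the medians of all the lists above kept their sign by TMM.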

How the data were processed

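The authors deposited a table of raw counts per gene. Per the submitters' processing notes, HISAT2 2.1.0, featureCounts and Subread 1.5.1 were used with GRCh38.p12. Whether the counting used strand or reads that fit several places is not stated there. Of 58395 gene IDs, 58275 were in GENCODE 29 (GRCh38), which gave symbols, gene types and positions, and 120 were not. Columns were matched to samples by description and title.

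Counts of all 15 libraries, with a mean per medium, were fitted with edgeR 4.0.16 (R 4.3.3, limma 3.58.1) using its low-count filter, TMM and the robust quasi-likelihood F test, two-sided, with 10 residual degrees of freedom and Benjamini-Hochberg adjustment over 16889 genes. The fit was repeated with library totals as the only scaling. The procedure was tested on simulated data. Other alternatives were DESeq2 1.42.0 (size factors, and its Wald test), other filters, the 6 compared libraries alone, a replicate block and leaving out each library. A test against a change of 1.2-fold, and a fit without 3 libraries rich in low counts, were added after seeing the data. No pair of libraries within the both or the neither group held identical counts. The floor of 3 counts marks levels too low to be resolved and does not measure counting error above it.

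The comparison and the gene lists were chosen with earlier results of these data known. Named genes were the 12 largest rises and falls of called genes with at least 5 CPM and no overlap, the 3 largest of each direction among genes not annotated as protein coding, up to 4 members of a list in its main direction and 3 in the other, members that did not pass, a fixed panel, and the 3 most abundant genes whose direction depended on scaling. CHAC1, FOSL1, FOSL2, MT-CO1, MT-ND4, MT-RNR2, EEF1A1, FDPS and RUSC1 fall outside it and were chosen after their values were seen. Genes at or under the floor of 3 counts with both nutrients get no fold. Some genes that this rule or these lists hold are not reported here by name.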

Additional observations from a re-analysis of the deposited data

How the results depend on the processing

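With library totals alone, 10866 genes were called higher and 2405 lower, 4299 at 2-fold or more higher and 268 lower, and 8 ER chaperone genes lower. With library totals and a test against a 1.2-fold change, 1215 genes were lower, 4254 were higher and 264 lower at 2-fold or more, and 13 proteasome, 2 ER chaperone and 2 glycolysis genes were lower. SLC2A1 changed sign under library totals with either test (log2 0.0167), as did MKI67 (0.4099). Leaving out each of the 6 compared libraries in turn gave 11660 to 11868 calls, 5908 to 6039 higher and 5742 to 5838 lower, 2081 to 2227 higher and 732 to 767 lower at 2-fold or more. Over the same fits the members called lower were 9 to 10 of the HSP90 list and 23 to 25 ATF4 targets, and those called higher were 13 to 14 fatty acid genes and 12 to 13 mitochondrially encoded genes. The counts of the HSP70 (10), TRiC (8), proteasome (31), FOS and JUN (8), ER chaperone (17), cholesterol (16), glycolysis (20) and ribosomal protein (79) lists did not move in those fits. Same-numbered replicates did not deviate together (residual correlations of -0.0593, -0.0780 and -0.0208), and the replicate block gave 12187 calls, 6233 higher and 5954 lower. DESeq2 size factors, DESeq2's Wald test, the other filters, the 6 libraries alone and the fit without 3 libraries rich in low counts kept these counts within 1.5 times. Of the remaining lists and settings, 728 counts stayed within 1.5 times and 72 moved by more. In the panel, 527 values kept their call, 11 passed and 2 no longer passed. Genes near the floor of 3 counts are not resolved.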
